A study of Mus musculus with 6 samples.

Results

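Erythropoietin and Kit signalling carry red cell progenitors from their first divisions to haemoglobin synthesis, and 10 genes of these pathways were followed in mouse spleen. They were measured by 24 of 45037 probe sets, namely every probe set whose platform annotation gives 1 gene symbol and that symbol is one of the 10. Epor, Kit and Stat5a are the receptors and a signal transducer, and Kitl and Bmp4 are ligands made by surrounding cells. Gata2 and Myb are transcription factors of early progenitors, and Cish, Pim1 and Socs2 are transcribed in response to erythropoietin through STAT5. Of the 24 probe sets, 20 lay at or above the 40th percentile of mean level over all probe sets.

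The samples were spleens of female mice, snap frozen and hybridised to 1 Affymetrix array each. In 3 samples the animals were (AKR/J x FVB/NJ)F1 (AKR/J F1), and in 3 they were (DBA/2J x FVB/NJ)F1 (DBA/2J F1). Every animal thus carries 1 FVB/NJ genome beside that of the strain which names its cross. All were killed by cervical dislocation under Avertin, and the labels name no treatment or age. The comparison addresses which transcripts differ at baseline between the crosses. Values are log2 expression values, and every difference is AKR/J F1 minus DBA/2J F1, so a negative one means lower in AKR/J F1.

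Kit, the receptor for the ligand encoded by Kitl, is present on multipotent and early erythroid progenitors and is lost as they mature, whereas the erythropoietin receptor is most abundant on later progenitors that no longer divide without erythropoietin. The receptor signals through the kinase JAK2 and the transcription factors STAT5A and STAT5B, and among the first genes induced are Cish and Socs2, which restrain the signal, and Pim1, a survival kinase. The mouse spleen stays a site of red cell production in adult life, and BMP4 is known for its part in expanding splenic progenitors during anaemia.

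The crosses differed at the erythropoietin receptor, at Kit ligand and at 2 of the 3 target genes, and the early progenitor genes Kit, Gata2 and Myb did not pass the test. With the brightest probe set standing for each gene, 4 of the 10 genes (Epor, Kitl, Cish and Pim1) were lower in AKR/J F1 and 0 were higher, by limma with Benjamini-Hochberg adjustment over 18193 genes at a threshold of 0.05. Among all genes 17.2% passed, with 8.31% lower and 8.91% higher in AKR/J F1. Counted by probe set, with adjustment over all 45037, 6 of 24 were lower and 0 higher, where 5.26% of all probe sets were lower, 5.14% were higher and 10.4% passed in either direction. The 3 AKR/J arrays all lay below the 3 DBA/2J arrays at the same 6 probe sets, a pattern held by 18.3% of all probe sets. The reverse order was held by 0 of the 24 and by 17.7% of all, so the crosses were separate at 36.1% of all probe sets. By gene, 4 of 10 were separate, against 41.2% of all genes, which puts that share near the background. All 4 had every AKR/J array lower, an order held by 19.2% of all genes. After median centring of the arrays, 61.9% of all calls were higher in AKR/J F1, against 49.4% without centring, and the counts for the 24 probe sets and 10 genes were again 6 and 4 lower. The gene count was 2 without any 1 of the AKR/J F1 arrays or without DBA/2J F1 replicates 2 or 3, and the probe set count was then 1 or 2. All adjusted p-values given for the 10 genes are limma's, over all probe sets, unless the text says over genes.

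**Figure D1:**
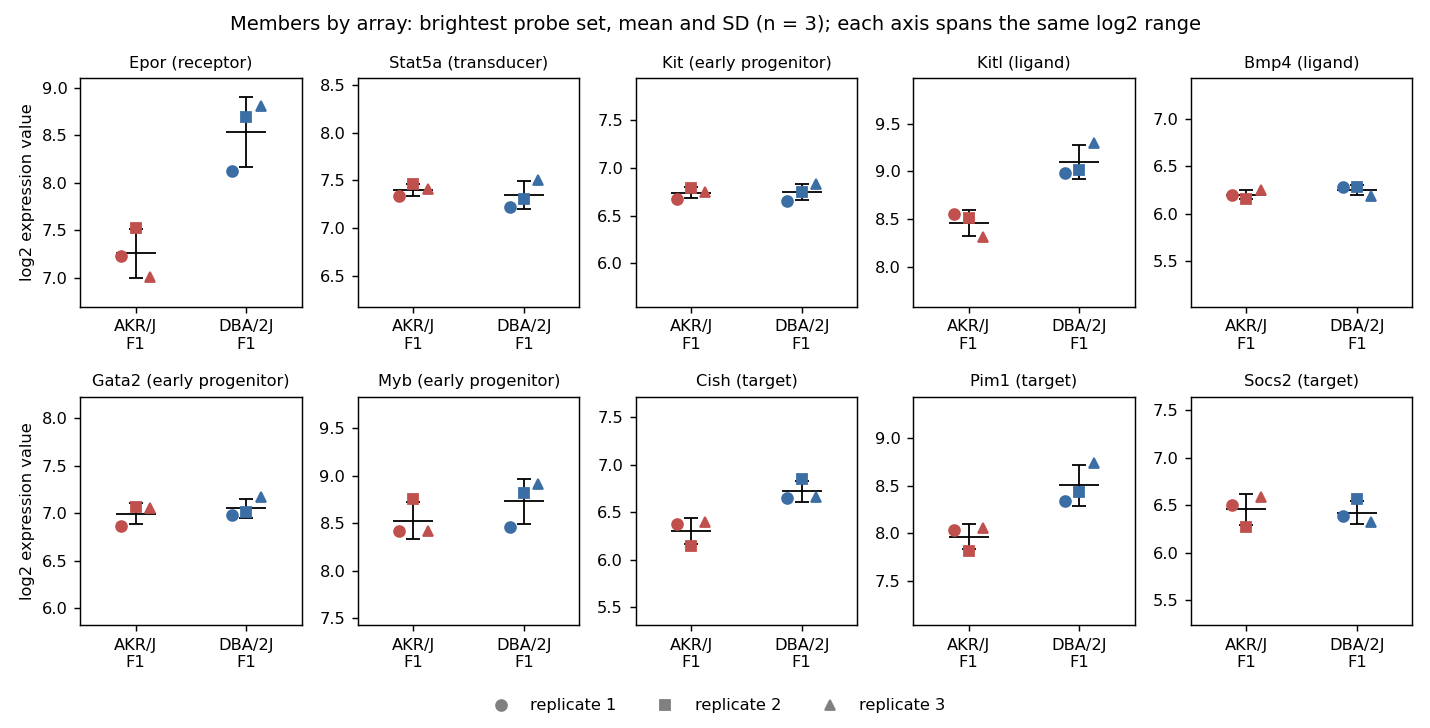
Log2 expression value of each of the 10 genes at its brightest probe set, with AKR/J F1 (red) left of DBA/2J F1 (blue), 3 arrays each, marker shape giving the replicate and bars the mean and SD. The arrays of the crosses are separate for Epor, Kitl, Cish and Pim1 and overlap for the other 6 genes, and every axis spans the same log2 distance.

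Array medians ran from 5.04 to 5.08 in AKR/J F1 and from 5.08 to 5.10 in DBA/2J F1. Transcripts of pancreatic acinar cells were abundant in 5 arrays and low in DBA/2J F1 replicate 3: the log2 summed level of 12 such genes was 17.43 to 17.49 in AKR/J F1, and 16.89, 17.27 and 10.10 in DBA/2J F1 replicates 1, 2 and 3. The difference without that array is given for each of the 10 genes. All 17 measured genes of a red cell precursor list were lower in AKR/J F1, against 8.31% of all genes. That count ran from 15 to 17 with 1 array left out. It was 16 with a trended, robust variance, where Klf1 did not pass (adjusted p = 0.0590 in limma over genes). The list's log2 summed level was 12.66 to 13.31 in AKR/J F1 and 14.40 to 15.07 in DBA/2J F1. In whole spleen, fewer cells of a type and less RNA per cell cannot be told apart.

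Epor was 2.43-fold lower in AKR/J F1, the largest difference among the 10 genes. Its single probe set read 7.23, 7.53 and 7.01 in the AKR/J arrays, against 8.12, 8.69 and 8.81 in the DBA/2J arrays. The highest AKR/J array lay 0.59 below the lowest DBA/2J array. The difference was -1.28 ± 0.19 (SE, n = 3 each, 95% interval -1.73 to -0.84, adjusted p = 0.0106 in limma). It passed whichever array was left out, between -1.49 and -1.15, and stood at -1.15 without DBA/2J F1 replicate 3.

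Epor and the mean of the red cell precursor list ranked the arrays alike. From low to high, the arrays ran AKR/J replicates 3, 1 and 2 and then DBA/2J replicates 1, 2 and 3, for Epor, for the mean of the red cell precursor list and for the mean of a list of dividing cell genes. Not every red cell precursor gene kept this order. Alas2 ran AKR/J replicates 3, 2 and 1 and then DBA/2J replicates 2, 3 and 1. The red cell precursor mean was 8.34, 8.44 and 7.84 in AKR/J F1 and 9.68, 10.31 and 10.44 in DBA/2J F1. All 17 red cell precursor genes had a difference more negative than that of Epor, from -1.31 for Alas2, the first enzyme of erythroid haem synthesis, to -2.67 for Cldn13. In the dividing cell list 13 of 17 genes were lower in AKR/J F1 and 0 higher, against 8.31% and 8.91% of all genes. Mki67, the usual marker of cycling cells, stood at -1.60. The list's count of lower genes was 2 and 3 without AKR/J F1 replicates 1 and 3 and 3 without DBA/2J F1 replicate 2. How far red cell precursor content accounts for Epor was not tested.

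The promoter of Epor is shown because the receptor carries the largest difference and because erythroid promoters are known for GATA and CACCC elements, which GATA1 and KLF1 bind. It is the 250 bases before the gene's start in RefSeq's GRCm38.p6 annotation, chr9:21963577-21963826 on the minus strand, and that of Cish, chr9:107296409-107296658 on the plus strand, is set beside it as a target gene of the receptor. Capitals mark CACCC and AGATAA, each on either strand, and the 2 do not overlap.
Epor: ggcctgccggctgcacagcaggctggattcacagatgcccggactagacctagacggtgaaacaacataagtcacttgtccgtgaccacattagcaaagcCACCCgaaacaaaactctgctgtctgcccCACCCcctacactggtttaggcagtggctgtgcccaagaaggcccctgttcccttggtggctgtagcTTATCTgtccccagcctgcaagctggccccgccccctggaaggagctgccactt
Cish: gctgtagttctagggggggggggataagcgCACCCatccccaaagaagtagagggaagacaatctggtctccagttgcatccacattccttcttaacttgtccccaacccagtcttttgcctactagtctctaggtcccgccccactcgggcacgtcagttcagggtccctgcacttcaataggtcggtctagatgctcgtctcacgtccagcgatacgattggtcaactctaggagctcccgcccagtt

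The Epor window holds AGATAA, read as TTATCT on the strand shown, 54 bases before the start, and CACCC at 150 and 121 bases. Of the 10 genes, 9 have an entry in the promoter table, with 13 start-site windows between them. AGATAA stood in 1 of these windows, that of Epor, and CACCC in 8, which belong to 7 genes. Among 32851 windows of this length AGATAA was in 9.99% and CACCC in 52.0%. The letters TTCNNNGAA, the core motif of STAT5 on either strand, and TGATAA were in 0 of the 13 start-site windows of these genes, against 7.02% and 7.94% of all windows. A match describes letters in this window and no more.

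Stat5a, the transducer next in the pathway, had no difference past the threshold at either of its probe sets. At the brighter one it read 7.34, 7.46 and 7.41 in AKR/J F1 and 7.22, 7.31 and 7.50 in DBA/2J F1. These arrays overlap, and the difference of 0.06 ± 0.10 (SE, n = 3 each, adjusted p = 0.709 in limma) has a 95% interval of -0.16 to 0.28. The other Stat5a probe set gave -0.01, interval -0.28 to 0.27. Without DBA/2J F1 replicate 3 the differences were 0.14 and 0.08. Replicate 1 of DBA/2J F1 was the lowest array at both.

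Most other genes of the erythropoietin receptor pathway did not pass. Of 16 measured, 1 (Epor) was lower in AKR/J F1, 2 were higher and 13 did not pass, by limma over all genes, a total near the 17.2% called among all genes. The list's median difference was 0.10, against -0.01 over all genes. Jak2, the receptor's kinase, stood at 8.92 in AKR/J F1 and 8.91 in DBA/2J F1. The 2 that were higher are Stat5b, which encodes the other STAT5 protein (0.30 ± 0.07 SE, adjusted p = 0.0354), and the adaptor Grb2 (0.29 ± 0.07 SE, adjusted p = 0.0352). Both passed without DBA/2J F1 replicate 1 and failed in the other 5 fits that left out 1 array. After quantile normalization neither passed (adjusted p = 0.118 and 0.0971), and Stat5b did not on averaging its probe sets (0.296).

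Among the target genes Cish and Pim1 were lower in AKR/J F1 and Socs2 was not called. Cish, which encodes an SH2 protein that binds activated receptors, read 6.37, 6.15 and 6.40 in AKR/J arrays and 6.65, 6.85 and 6.66 in DBA/2J arrays. The crosses are separate by 0.25. The difference was -0.41 ± 0.10 (SE, n = 3 each, 95% interval -0.65 to -0.18, adjusted p = 0.0408 in limma), or 1.33-fold. It did not pass without AKR/J F1 replicates 1, 2 or 3 or DBA/2J F1 replicates 2 or 3, where adjusted p ran from 0.0746 to 0.118 and the difference from -0.46 to -0.33. Without DBA/2J F1 replicate 3 it was -0.44 (adjusted p = 0.0843).

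Pim1, a serine/threonine kinase, has 2 probe sets whose differences were of similar size. The brighter read 8.03, 7.81 and 8.06 in AKR/J F1, against 8.34, 8.44 and 8.74 in DBA/2J F1. These groups do not overlap, and DBA/2J F1 replicate 3 was the highest array. The difference was -0.54 ± 0.12 (SE, n = 3 each, 95% interval -0.82 to -0.26, adjusted p = 0.0349 in limma), or 1.45-fold. The dimmer Pim1 probe set read 6.02, 5.80 and 6.21 in AKR/J F1 and 6.19, 6.59 and 6.96 in DBA/2J F1, with a difference of -0.57 (adjusted p = 0.0881). There the crosses overlap narrowly, through AKR/J F1 replicate 3 and DBA/2J F1 replicate 1. At the brighter probe set the call was lost without AKR/J F1 replicates 1, 2 or 3 and DBA/2J F1 replicates 2 or 3, with adjusted p between 0.0727 and 0.0945. Without DBA/2J F1 replicate 3 the differences at the brighter and dimmer probe sets were -0.42 and -0.38.

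Socs2, another SH2 protein that limits cytokine signals, has 6 probe sets, and 0 of them passed. The brightest read 6.50, 6.27 and 6.59 in AKR/J F1 and 6.39, 6.56 and 6.32 in DBA/2J F1. Its difference of 0.03 ± 0.11 (SE, n = 3 each) has a 95% interval of -0.22 to 0.28, and the arrays are interleaved. Without DBA/2J F1 replicate 3 it was -0.018. The 6 differences ran from -0.22 to 0.15, and 3 of the 6 probe sets lie below the 40th percentile, where a fall would be hard to see. The dimmest probe set stood at 2.55 to 2.75 in AKR/J F1 and 2.61 to 3.02 in DBA/2J F1. That is within the range of 5 Y-linked genes in these female spleens, 2.36 to 3.31, which is taken here as the level of an absent transcript.

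A wider list of genes reported to respond to erythropoietin or STAT5 was split in direction. Of 15 measured, 5 were lower in AKR/J F1 and 1 was higher, where the shares among all genes were 8.31% and 8.91%. The remaining 9 stayed short of the threshold, and differences in this list had a median of 0.03, against -0.01 over all genes. Beside Cish and Pim1 the lower ones were Tfrc, the transferrin receptor (-1.46), Bcl2l1, which encodes the survival protein BCL-XL (-0.54), and the cyclin Ccnd3 (-0.59). Tfrc also stands in the red cell precursor list. Pim2, a close relative of Pim1, was higher, at 0.66 ± 0.14 (SE, adjusted p = 0.0238 in limma over genes), with 7.94 in AKR/J F1 and 7.28 in DBA/2J F1. The inhibitors Socs1 and Socs3 and the cytokine Osm stood at 0.20, 0.28 and 0.02, none past the threshold. Tfrc and Bcl2l1 passed whichever array was left out. Cish, Pim1, Ccnd3 and Pim2 passed only when the array left out was DBA/2J F1 replicate 1, so the count lower in AKR/J F1 was 2 in each of the other 5 such fits. With the mean of its probe sets in place of the brightest, Ccnd3 did not pass (adjusted p = 0.160).

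**Figure D2:**
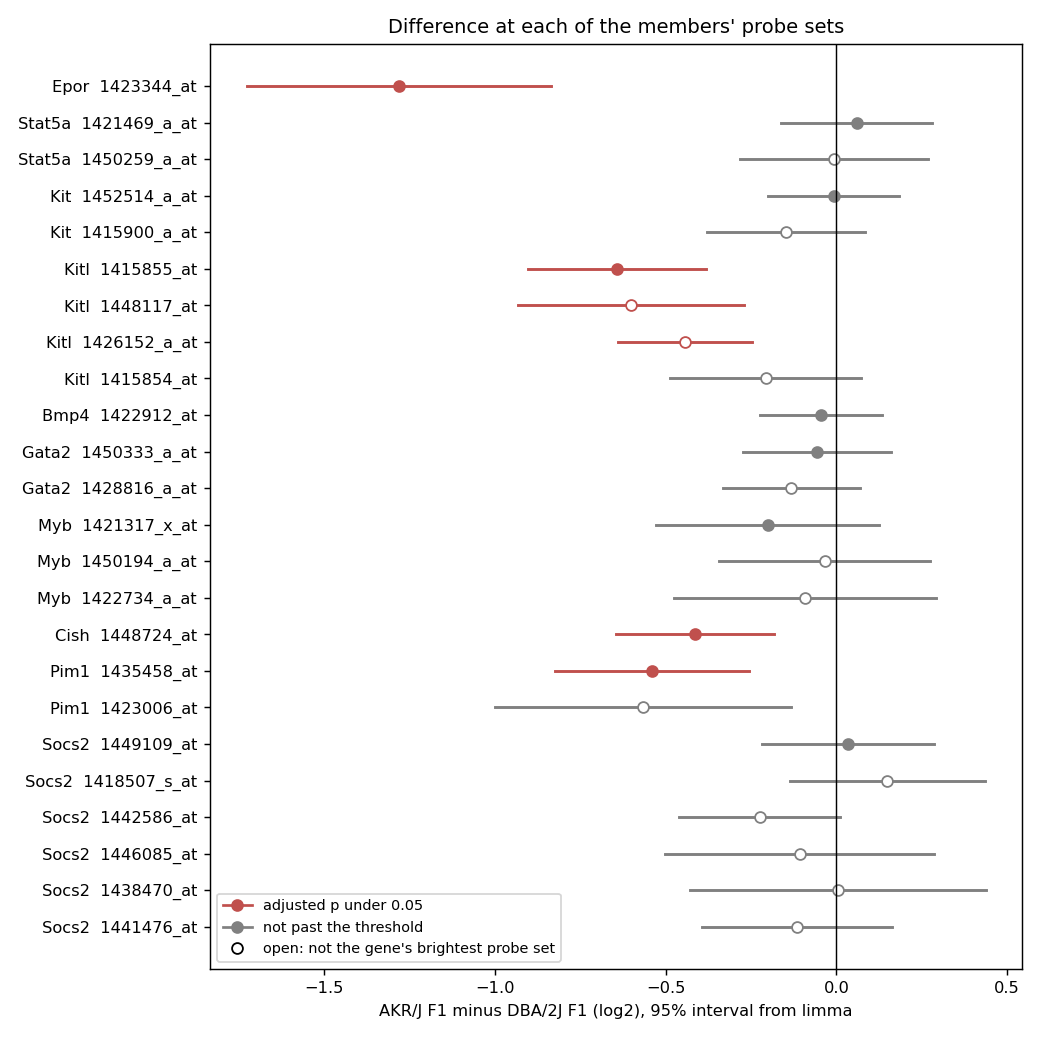
Difference between crosses at each of the 24 probe sets (x axis: AKR/J F1 minus DBA/2J F1, log2; bars: 95% interval from limma), in red where the adjusted p over all probe sets is under 0.05. The interval lies left of 0 for Epor, 3 of 4 Kitl probe sets, Cish and both Pim1 probe sets, one of which did not pass after adjustment, and spans 0 for all others.

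The early progenitor genes gave no difference past the threshold. Kit read 6.68, 6.79 and 6.75 in AKR/J F1 and 6.66, 6.75 and 6.83 in DBA/2J F1 at its brighter probe set. All 6 values lie within 0.18 of each other, and the highest and the lowest both come from DBA/2J F1. The difference was -0.01 ± 0.08 (SE, n = 3 each, adjusted p = 0.958 in limma), with a 95% interval of -0.20 to 0.18, which does not reach the difference seen for Epor. The dimmer Kit probe set read 5.55, 5.77 and 5.73 in AKR/J F1 and 5.97, 5.80 and 5.72 in DBA/2J F1, a difference of -0.15 with an interval of -0.38 to 0.08. Leaving out DBA/2J F1 replicate 3 gave 0.035 and -0.21.

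Kit and Gata2 are also transcribed in mast cells, and Gata2 in megakaryocytes. Of 11 measured mast cell and basophil genes 2 were lower in AKR/J F1, the proteases Mcpt2 (-1.70) and Tpsab1 (-0.46), and 0 were higher, with a median of -0.18 and a total near the 17.2% called among all genes. Tpsab1 passed only without DBA/2J F1 replicate 1 among fits with 1 array left out. Their log2 summed level was 7.87 to 8.03 in AKR/J F1 and 8.19 to 8.48 in DBA/2J F1. Fcer1a, which encodes the IgE-binding chain of the mast cell receptor, stood at 2.88 to 2.98 in AKR/J F1 and 2.78 to 3.18 in DBA/2J F1, within the Y-linked range. Of 11 megakaryocyte and platelet genes 0 passed in limma and 4 had an unadjusted p under 0.05, with the smallest p for the platelet glycoprotein gene Gp9 (-0.35). All 11 differences were negative (median -0.28), as were 10 of 11 in the mast cell and basophil list. Over all genes 9333 of 18193 differences were negative. The part of mast cells, basophils and megakaryocytes in the Kit and Gata2 values was not tested.

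Gata2, which keeps progenitors from maturing, read 6.86, 7.07 and 7.05 in AKR/J F1 and 6.98, 7.01 and 7.16 in DBA/2J F1 at its brighter probe set. The arrays overlap, with a difference of -0.06 ± 0.09 (SE, n = 3 each, 95% interval -0.27 to 0.16, adjusted p = 0.715 in limma). At the dimmer Gata2 probe set the difference was -0.13, interval -0.33 to 0.07. Leaving out DBA/2J F1 replicate 3 gave 0.00094 and -0.087.

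Myb, which maintains dividing progenitors, gave no call at any of its 3 probe sets. Its brightest probe set read 8.42, 8.75 and 8.42 in AKR/J F1 and 8.46, 8.82 and 8.92 in DBA/2J F1. Replicate 2 of AKR/J F1 lay close to the upper DBA/2J arrays, and DBA/2J F1 replicate 1 lay close to the lower AKR/J arrays. The difference was -0.20 ± 0.14 (SE, n = 3 each, 95% interval -0.53 to 0.13, adjusted p = 0.367 in limma), and the other 2 Myb probe sets gave -0.03 and -0.09. Leaving out DBA/2J F1 replicate 3 gave -0.11 at the brightest, and 0.062 and 0.043 at the others. Replicate 2 was the highest AKR/J array and replicate 1 the lowest DBA/2J array at all 3 probe sets, which target 1 gene and are not independent.

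A wider list of early progenitor genes had a median difference of -0.06. Of its 19 genes 4 were lower in AKR/J F1 and 2 higher, against 8.31% and 8.91% of all genes, and 13 did not pass. The lower ones were Tal1 (-1.69 ± 0.25 SE, adjusted p = 0.00888 in limma over genes), Zfpm1 (-1.14), Gfi1b (-1.14) and Lmo2 (-0.48), whose products are transcription factors or cofactors known to act in both progenitors and red cell precursors. The higher ones were the surface sialomucin Cd34, an antigen of stem and progenitor cells that endothelium also carries (0.38), and the transcription factor Sox4 (0.63). Of the uncalled genes, Hoxa9 (-0.33, adjusted p = 0.0512, arrays separate) and Mycn (-0.24, adjusted p = 0.0613, arrays separate) were the nearest to a call, Erg, Runx1 and Hhex stood at 0.27, 0.33 and 0.27, and Flt3, Meis1, Hlf and Lyl1 lay between -0.07 and 0.03. Tal1 passed whichever array was left out. Zfpm1, Gfi1b, Sox4, Lmo2 and Cd34 passed in 3, 2, 2, 1 and 0 of those 6 fits. The count lower in AKR/J F1 was 1 without AKR/J F1 replicate 1 or DBA/2J F1 replicate 2, and 2 without replicate 3 of either cross. Gfi1b did not pass with a trended, robust variance (adjusted p = 0.0896), Cd34 did not after quantile normalization (0.0769), and Sox4 did not with the mean of its 8 probe sets (0.255).

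Early progenitor genes and target genes were then set against each other, array by array. The mean deviation of Kit, Gata2 and Myb from their 6-array means was -0.15, 0.07 and -0.06 in AKR/J F1 and -0.10, 0.06 and 0.17 in DBA/2J F1, which overlap. For Cish, Pim1 and Socs2 it was -0.09, -0.32 and -0.05 in AKR/J F1, all below the 0.06, 0.22 and 0.18 of DBA/2J F1. The means differed by -0.09 for the progenitor genes and by -0.31 for the targets. Progenitor minus target deviation was -0.05, 0.39 and -0.01 in AKR/J F1 and -0.16, -0.16 and -0.01 in DBA/2J F1. The difference was 0.22, the SD between arrays within crosses was 0.18, and the difference was not tested. The ranges overlap, since AKR/J F1 replicates 1 and 3 both lay below DBA/2J F1 replicate 3. Without AKR/J F1 replicate 2 the difference became 0.08, and without DBA/2J F1 replicate 3 it was 0.27. Without that DBA/2J F1 array the progenitor and target differences were -0.02 and -0.29. The means of the wider lists did not repeat this pattern. For the 19 early progenitor genes the mean was 7.21, 7.21 and 7.10 in AKR/J F1. All were below the 7.30, 7.40 and 7.40 of DBA/2J F1. For the 15 target genes the mean was 7.69, 7.54 and 7.54 in AKR/J F1. Those values overlap the 7.62, 7.73 and 7.83 of DBA/2J F1.

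**Figure D3:**
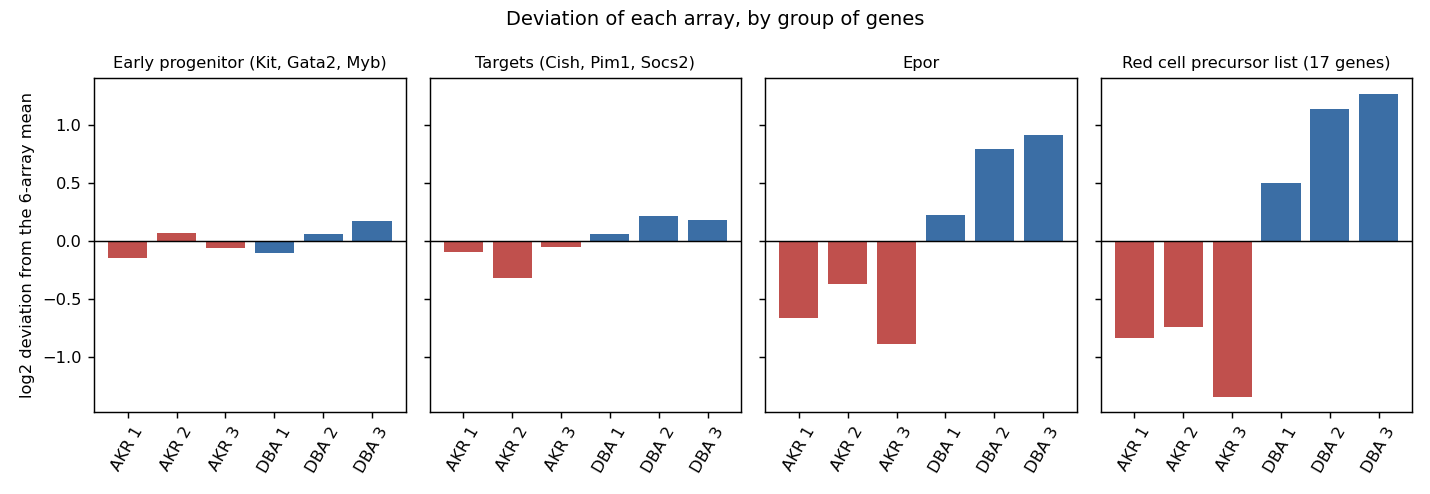
Log2 deviation of each array from the 6-array mean (y axis, same scale in each panel) for the mean of Kit, Gata2 and Myb, the mean of Cish, Pim1 and Socs2, Epor, and the mean of 17 red cell precursor genes, AKR/J arrays (red) left of DBA/2J arrays (blue). The first panel has both signs in both crosses, and the other panels are negative in every AKR/J array and positive in every DBA/2J array.

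Gene by gene, the log ratios of Epor to Kit, Gata2 and Myb differed by -1.27, -1.22 and -1.08, each with the smallest p that an exact two-sided permutation test of 3 against 3 arrays allows, 0.1. Those of Pim1 to Kit, Gata2 and Myb differed by -0.53, -0.48 and -0.34 (exact p = 0.1, 0.1 and 0.2). Those of Cish differed by -0.41, -0.36 and -0.21 (exact p = 0.1, 0.2 and 0.4), and the arrays overlap for Cish over Gata2, Cish over Myb and Pim1 over Myb. The ratios of Socs2 to Kit, Gata2 and Myb differed by 0.04, 0.09 and 0.23 (exact p = 0.6, 0.6 and 0.4). Over 12 such pairs of Epor or a target with a progenitor gene, adjusted p was 0.2 at the lowest, and no pair could have passed in this design.

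Kitl, the membrane-bound and secreted ligand of Kit, was lower in AKR/J F1 at 3 of its 4 probe sets. The brightest read 8.56, 8.51 and 8.31 in AKR/J F1 and 8.98, 9.02 and 9.30 in DBA/2J F1. A gap of 0.42 separates the crosses, and replicate 3 is the lowest array in AKR/J F1 and the highest in DBA/2J F1. The difference was -0.64 ± 0.11 (SE, n = 3 each, 95% interval -0.90 to -0.38, adjusted p = 0.0172 in limma), or 1.56-fold.

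The second Kitl probe set read 7.17, 7.18 and 7.03 in AKR/J F1 and 7.54, 7.57 and 8.07 in DBA/2J F1, a difference of -0.60 (adjusted p = 0.0386). The next read 4.59, 4.78 and 4.76 in AKR/J F1 and 5.17, 5.11 and 5.17 in DBA/2J F1, a difference of -0.44 (adjusted p = 0.0217). The dimmest, averaging 3.75 in AKR/J F1 and 3.95 in DBA/2J F1, differed by -0.21 and did not pass. All 4 values are negative, and the dimmest probe set has the smallest, at -0.27 without DBA/2J F1 replicate 3.

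At the brightest Kitl probe set the call was lost without AKR/J F1 replicate 3 (-0.57, adjusted p = 0.0580) and kept in the other 5 fits with 1 array left out. Without DBA/2J F1 replicate 3, the array low in pancreatic transcripts, it was -0.54 (adjusted p = 0.0474). The probe sets at -0.60 and -0.44 kept their calls only without DBA/2J F1 replicate 1, and their adjusted p otherwise ran from 0.0502 to 0.106. Without DBA/2J F1 replicate 3 their differences were -0.43 and -0.43.

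In the spleen Kit ligand is known to come from endothelial cells and Tcf21-expressing stromal cells. Of 17 endothelial and stromal genes 6 were higher in AKR/J F1 and 0 lower, against 8.91% and 8.31% of all genes. The median difference was 0.26, and 1 gene, Pdgfra, had a negative one (-0.30, not past the threshold). The log2 summed level of the 17 genes was 12.93 to 12.97 in AKR/J F1 and 12.55 to 12.78 in DBA/2J F1. Lum, which encodes the matrix protein lumican, differed by 1.13 and passed whichever array was left out. Tcf21 itself differed by 0.43 (adjusted p = 0.0484 in limma over genes). The count was 1 without AKR/J F1 replicates 1 or 3 or DBA/2J F1 replicate 2, 2 without AKR/J F1 replicate 2 or DBA/2J F1 replicate 3, and 8 without DBA/2J F1 replicate 1. It was 3 after quantile normalization, where Tcf21 did not pass (adjusted p = 0.0915). The part of these cells in the Kitl value was not tested.

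A Kit signalling list holds Kit, its ligand Kitl and genes that act after the receptor. Of its 20 measured genes 3 were higher in AKR/J F1, 1 (the ligand) was lower and 16 did not pass, a total near the 17.2% called among all genes. The kinase Fyn differed by 0.55 ± 0.07 (SE, adjusted p = 0.00655 in limma over genes) and passed whichever array was left out. Mitf, a transcription factor that Kit signalling controls in mast cells and melanocytes, differed by 0.36 and passed in none of those 6 fits, nor after quantile normalization (adjusted p = 0.0937) or on averaging its probe sets (0.0540). Grb2 is described above. The list's median was 0.20. Fyn is abundant in T cells, and all 10 measured genes of a T cell list were higher in AKR/J F1 (median 0.52), against 8.91% of all genes. Of the 10, 6 and 5 passed without AKR/J F1 replicates 1 and 3, and 6 without DBA/2J F1 replicate 3. After quantile normalization 7 of these T cell genes passed, and 8 on averaging probe sets. Their part in the Fyn value was not tested. The count of higher genes was 7 without DBA/2J F1 replicate 1 and 1 without any other array.

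Bmp4 had the narrowest range over the 6 arrays of the 10 brightest probe sets. It read 6.20, 6.15 and 6.25 in AKR/J F1 and 6.28, 6.28 and 6.19 in DBA/2J F1, so all 6 arrays lie within 0.13. The difference was -0.05 ± 0.08 (SE, n = 3 each, 95% interval -0.22 to 0.13, adjusted p = 0.722 in limma), and it was -0.077 without DBA/2J F1 replicate 3.

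Within a BMP pathway list some receptors and SMAD transducers were higher in AKR/J F1. Of 20 measured genes 6 were higher, 1 was lower and 13 did not pass, with a median of 0.12, where 8.91% of all genes were higher and 8.31% lower. The 6 were the receptors Acvr1 (0.43), Acvr2a (0.34) and Bmpr2 (0.26), the transducers Smad1 (0.56) and Smad4 (0.29), and the inhibitory Smad6 (0.66). Smad5, the transducer known from BMP4-dependent splenic red cell production in mice, differed by 0.22 (adjusted p = 0.103), and the response genes Id1, Id2 and Id3 by 0.04, 0.09 and 0.05. Gli1, a hedgehog target, was lower by -0.50 at a level of 3.62 in AKR/J F1 and 4.12 in DBA/2J F1, below the 40th percentile. The count of higher genes was 0 without AKR/J F1 replicates 1 or 3 or DBA/2J F1 replicate 2, 2 without AKR/J F1 replicate 2 or DBA/2J F1 replicate 3, and 5 without DBA/2J F1 replicate 1. It was 3 after quantile normalization, where Acvr2a, Bmpr2 and Smad4 did not pass. It was 3 on averaging probe sets, where Acvr1, Acvr2a and Bmpr2 did not pass (adjusted p = 0.693, 0.350 and 0.195), so none of the receptor calls held there.

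**Figure D4:**
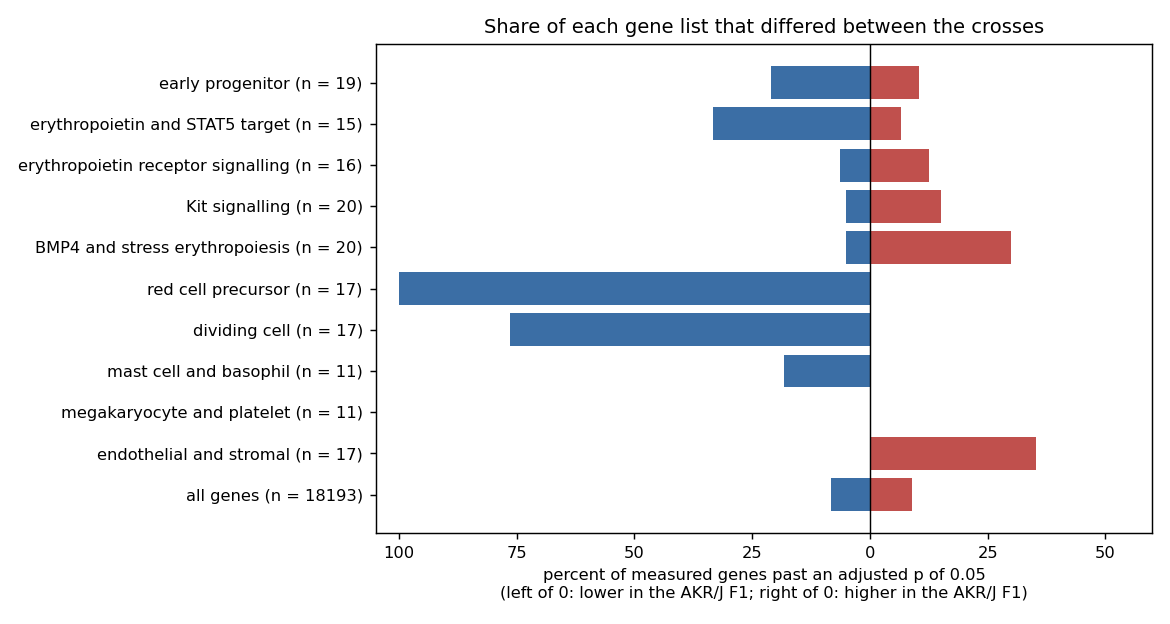
Percent of measured genes in each list past an adjusted p of 0.05 (x axis), drawn left of 0 where lower in AKR/J F1 (blue) and right where higher (red), beside all 18193 genes. All 17 red cell precursor genes lie to the left, while the pathway lists hold calls in both directions.

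For Epor, Kit and Cish the 5 genes with the nearest profiles over the 6 arrays were listed, and their differences follow from that choice. Likeness was the root mean square distance between deviations from the 6-array mean, over 12287 other genes at or above the 40th percentile. Nearest to Epor were Depdc1b (0.0518), Samd14 (0.0596), Urod, an enzyme of haem synthesis (0.0633), Anln, a protein of cell division (0.0766), and the cyclin Ccnf (0.0781), each lower in AKR/J F1, by between -1.17 and -1.34. Nearest to Kit were Heatr1, Abca3, Eif3h, Mllt1 and Tlk1 (0.0171 to 0.0222), with differences between -0.02 and 0.02. Nearest to Cish were Mtmr9, Prm3, Piezo2, Ascl3 and Dnhd1 (0.0512 to 0.0653), with differences between -0.34 and -0.43. Neither Pim1 nor any other of the 10 genes was among the 5 nearest to Epor, Kit or Cish.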

How the data were processed

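Values are the authors' deposited log2 expression values per probe set. RMA and MAS5 are both named, per the submitters' processing notes, without saying which of them made these values. If RMA made them, differences near background are compressed, and the labels do not settle this. Of 45101 probe sets, 64 Affymetrix controls were left out. Platform annotation gave 1 symbol to 34945 of the rest, several to 932 and none listed here to 9160. Groups and replicate numbers came from the titles, and nothing in the labels describes how animals were allocated, so p-values measure the spread between these samples. With no counts or detection calls, the number of arrays (3 per cross) limits the precision.

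Each probe set was tested with limma 3.58.1 in R 4.3.3 (lmFit, eBayes, 6 arrays, no covariate, Benjamini-Hochberg adjustment, threshold 0.05). Each of 18193 symbols was represented by its brightest probe set. The fit was tested on simulated data. The 10 genes and all lists were chosen with earlier results of these data known. All 10 genes were described with every probe set. From each list up to 4 past the threshold with the smallest p were named, any gene of the progenitor, target, receptor and BMP lists could be, and Alas2, Cldn13, Fcer1a and Tcf21 were chosen after their values were seen. Ratios of pairs of genes and promoter motifs were likewise added to the planned tests. Alternatives were each array left out, the replicate block, array weights, a trended robust variance (statmod 1.5.0), median centring, quantile normalization, a filter at the 40th percentile of level (4.33), and averaging the probe sets of a gene. A pseudocount, planned for linear values, was not needed. Promoters came from RefSeq's GRCm38.p6 table, read with Python 3.11.15 and pandas 2.3.3. Figures used matplotlib 3.10.9.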

Additional observations from a re-analysis of the deposited data

How the results depend on the processing

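In all 6 alternatives that kept every array and tested probe sets, 6 or 7 of the 24 were lower in AKR/J F1 and 0 higher. With the replicate block Cish was lost (adjusted p = 0.0616), and the dimmer Pim1 probe set passed (0.0474), as it did with array weights (0.0388). Deviations of same-numbered samples correlated at 0.201, 0.108 and 0.0451, so the numbers were not taken to pair the samples. Quantile normalization left 1436 probe sets higher in AKR/J F1 and 1 early progenitor gene higher, as did averaging probe sets (1). Erythropoietin receptor genes higher were 4, 0, 4, 4 and 0 with centring, quantile normalization, trended robust variance, array weights and the replicate block, and 2 were lower with the quantile, trended and weighted settings. Kit signalling genes higher were 6, 1, 6 and 7 with centring, quantile normalization, trended variance and weights. BMP genes higher were 3 with quantile normalization and 3 with the mean of probe sets, and 0 were lower once dim probe sets were left out. With 1 array left out, probe sets higher ran from 514 to 2286 and lower from 487 to 2507, the 24 probe sets lower from 1 to 7, and the 10 genes lower from 2 to 4. Likewise early progenitor genes ran from 0 to 1 higher and 1 to 4 lower, target genes from 0 to 1 higher and 2 to 5 lower, receptor genes from 0 to 4 higher and 1 to 2 lower, Kit genes from 1 to 7 higher, and BMP genes from 0 to 5 higher and 0 to 1 lower. Differences that were never called changed sign as follows. The brightest Stat5a probe set gave -0.026 and the brightest Socs2 one -0.035 with quantile normalization, the dimmer Stat5a one 0.024 and the brighter Kit one 0.024 with centring, the brightest Socs2 one -0.014 and a dim Socs2 one -0.023 with weights, and Socs2 -0.044 on averaging probe sets. With 1 array left out, Stat5a ran from -0.0031 to 0.14 and from -0.12 to 0.079 at its brighter and dimmer probe sets, Kit from -0.054 to 0.035, Gata2 from -0.093 to 0.0086, the other Myb probe sets from -0.15 to 0.065 and from -0.24 to 0.043, the brightest Socs2 one from -0.033 to 0.13, and its 3 dimmest from -0.30 to 0.0051, from -0.24 to 0.13 and from -0.20 to 0.012. The cause was not tested. With 3 arrays a cross and no detection calls, small differences and dim probe sets are measured least well.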
